A study of Mus musculus with 7 samples.

Results

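The 35 genes described here encode the proton pump of the lysosome, the hydrolases that work in its lumen and a few further lysosomal proteins. They form a named list of 14 subunits of the vacuolar-type proton pump (6 of its membrane sector V0 and 8 of its peripheral sector V1), 13 hydrolases and 8 other lysosomal genes. All 35 were found among the 21631 protein-coding genes that a RefSeq table of the mouse build GRCm38.p6 (mm10) places on the 19 autosomes and X. A gene was counted as called in a library when a peak of that library shared at least 1 bp with the window of 1 kb on either side of either gene end. The windows use no measured value, but the genes themselves were chosen with earlier results of these data known.

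Lysosomes break down material taken up by endocytosis, phagocytosis and autophagy. The pump splits ATP in its V1 sector and drives protons through its V0 sector into the lumen, and the hydrolases need the resulting acid pH. Monocytes and the macrophages they give rise to are rich in lysosomes, and the transcription factor TFEB, itself on the list, activates many of these genes through E-box sites near their starts.

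Histone marks were profiled by CUTAC in cMoPs (common monocyte progenitors), cells already committed to the monocyte lineage that were sorted from mouse bone marrow. CUTAC directs a transposase to a histone mark with an antibody and, with no salt added, cuts the open DNA near it. The cells carried the form labelled DE or the form labelled WT of an enhancer at −165 kb from Zeb2, a transcription factor gene, and the labels do not spell out DE. Batch 2 held 2 DE and 2 WT libraries of H3K4me2, which marks promoters and enhancers, and batch 1 held 1 WT library of H3K4me3, which is typical of active promoters. The sources used here do not give the strain, age or number of the mice or say whether replicates came from separate animals. The spread between replicates may therefore be technical. The exact p-values given for covered bases rest only on the possible assignments of these libraries to DE and WT. They do not measure a spread between animals. A library of H3K4me3 in WT cells labelled MDP and a cMoP library with control IgG were not analysed here.

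For H3K4me2 there were 21968 and 17079 peaks in DE replicates 1 and 2, against 32354 and 28152 in WT replicates 1 and 2, and for H3K4me3 there were 6425. The lists hold no read totals, so depth per library is not given. The header lines of both DE lists name the second DE library, and each list's sample was taken from the series record. Of 8 genes of the cMoP and monocyte lineage, 8 and 7 were called in the DE lists and 8 and 8 in the WT lists. Of 4 B cell genes and 4 T cell genes at most 1 of each was called in any list, and of 3 mast cell and basophil genes none was. Of 3 genes of late neutrophils, Ltf was called in WT replicate 1, and no other call was made. At the erythroid genes, Klf1 was called in both DE lists and in neither WT list, and Gata1 and Hba-a1 were called in no list. The part of other cell types in the results given here was not tested. Each library pools many cells, so a mark carried by fewer cells and a weaker mark per cell cannot be told apart.

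Nearly all of the lysosomal genes had an H3K4me2 call at a gene end in each of the 4 lists. DE replicates 1 and 2 called 33 and 32 of the 35 genes, where 45.3% and 40.7% of all protein-coding genes were called. WT replicates 1 and 2 called 34 and 35 of the 35 genes, where 48.6% and 49.7% of all protein-coding genes were called. In all 4 H3K4me2 lists 31 of the 35 genes (88.6%) were called, against 38.1% of all protein-coding genes. The 4 exceptions were Atp6v0e and Atp6v1g1 of the pump, the hydrolase gene Gusb and the membrane protein gene Lamp2. No gene of the list was without a call in every H3K4me2 list. When only peaks with a −log10 q of at least 5 were kept, 21 of the 35 genes and 23.7% of all protein-coding genes were called in all 4 lists.

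**Figure D1:**
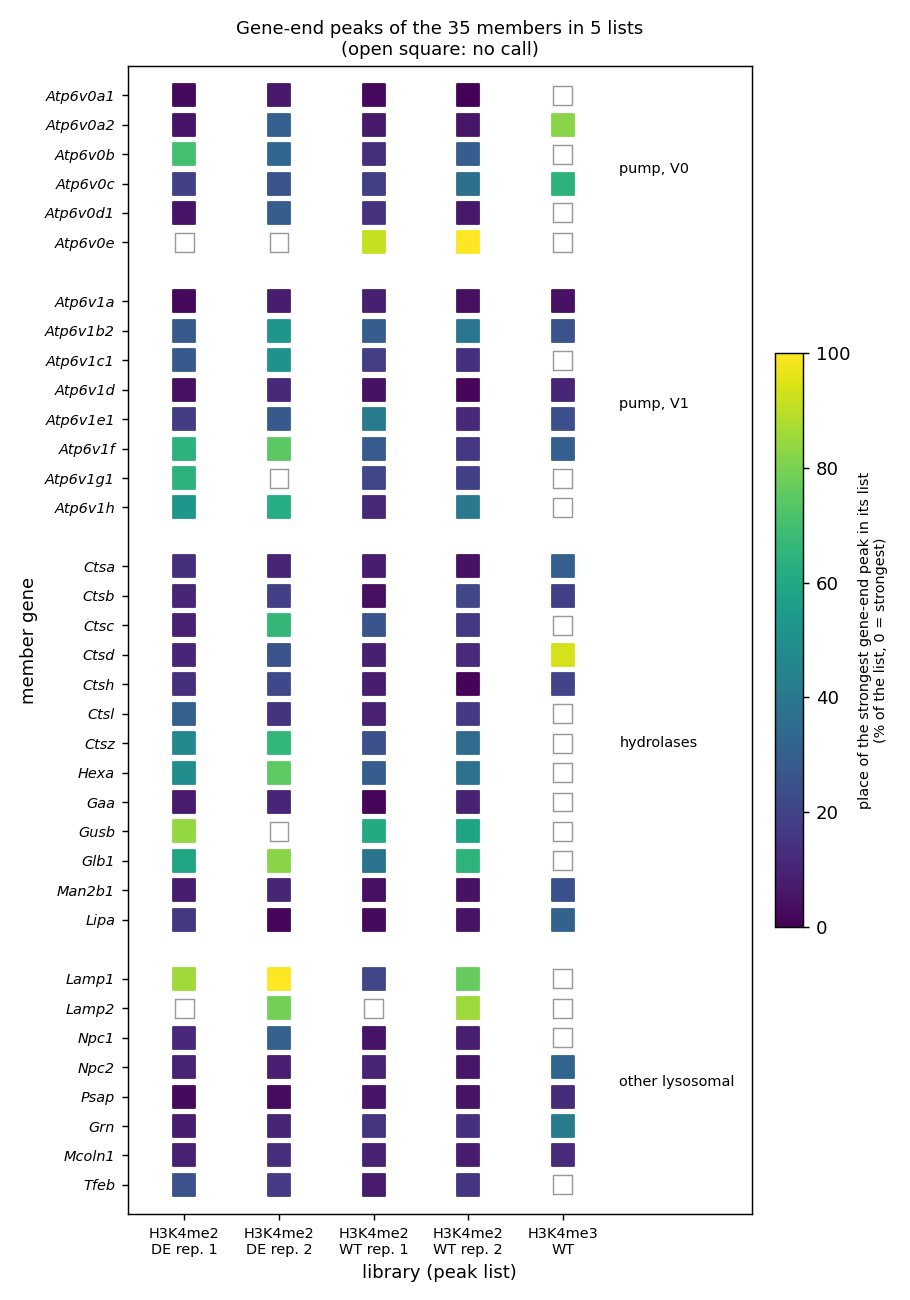
Strength of the strongest H3K4me2 or H3K4me3 peak within 1 kb of either end of each of the 35 genes (rows, by role) in each of the 5 peak lists (columns). Colour gives the place of the peak in its list in % (0 is the strongest), an open square means no call, and the colours cannot be compared between lists of different length. The H3K4me2 columns are nearly full, with 2 and 3 open squares in the DE lists and 1 and 0 in the WT lists, and the H3K4me3 column has 18 open squares.

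E-box letters were more frequent in the promoters of these genes than in promoters at large. A promoter of 250 bases before to 50 bases after the start is given by RefSeq (GRCm38.p6) for 27 of the 35 genes. The 8 without an entry are Atp6v0a2, Atp6v1b2, Atp6v1c1, Atp6v1g1, Atp6v1h, Ctsb, Ctsh and Npc1. The core E-box CACGTG, which reads the same on both strands, stood in 10 of the 27 promoters (37%), against 8.01% of 17274 protein-coding gene promoters and 10.6% of those of genes called in all 4 H3K4me2 lists. The longer form GTCACGTG, searched on both strands and containing the core, is part of the motif through which TFEB binds its targets. It stood in 6 of the 27 promoters (22.2%), against 2.89% of all promoters and 4.59% of those of genes called in all 4 lists. A second motif, CCAAT, which does not overlap the E-box and is common in promoters, stood in 9 of the 27 (33.3%) and in 39.6% of all promoters. By role, the core E-box was found in 4 of the 9 pump promoters, 4 of the 11 hydrolase promoters and 2 of the 7 others. The 10 genes were Atp6v0b, Atp6v0d1, Atp6v0e, Atp6v1a, Ctsd, Ctsl, Gaa, Glb1, Lamp1 and Mcoln1. A match of letters is a description and not a binding site.

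The last 100 bases before the start are shown for 5 of these genes, the pump gene Atp6v0b and the 4 lysosomal genes whose peaks are described in detail, with each CACGTG in capitals. They are RefSeq sequences of GRCm38.p6, read 5′ to 3′ on the gene's strand, at chr4:117887330-117887429 (minus strand, Atp6v0b), chr7:142387828-142387927 (minus strand, Ctsd), chr9:114400978-114401077 (plus strand, Glb1), chr8:13159061-13159160 (plus strand, Lamp1) and chr8:3500419-3500518 (plus strand, Mcoln1).
Atp6v0b: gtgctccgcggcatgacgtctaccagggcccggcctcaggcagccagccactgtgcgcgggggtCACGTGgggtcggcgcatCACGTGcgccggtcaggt
Ctsd: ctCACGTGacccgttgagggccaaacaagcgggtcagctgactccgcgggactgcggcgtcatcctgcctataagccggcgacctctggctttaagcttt
Glb1: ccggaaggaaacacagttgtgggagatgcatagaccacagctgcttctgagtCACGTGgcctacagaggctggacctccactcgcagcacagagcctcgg
Lamp1: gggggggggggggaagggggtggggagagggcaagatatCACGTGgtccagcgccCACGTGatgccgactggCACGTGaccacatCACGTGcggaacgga
Mcoln1: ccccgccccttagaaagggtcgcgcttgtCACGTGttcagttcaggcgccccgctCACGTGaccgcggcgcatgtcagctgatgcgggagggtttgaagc

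Of the 16 core E-boxes in the 10 promoters, 7 lay under a peak in all 4 H3K4me2 lists and 6 under a peak in none. The share over the E-boxes of all promoters was not taken, so these counts cannot be called high or low. Both sites of Atp6v0b, both of Ctsd, both of Mcoln1 and the site of Atp6v0d1 were the 7 covered in every list. The 4 sites of Lamp1, at −61 to −10 from the start, lay under no H3K4me2 peak, and so did the site of Atp6v1a and that of Gaa. The site of Glb1, at −48 to −43, and the site of Atp6v0e, at 3 to 8 bases past the start, were covered in both WT lists and in neither DE list. H3K4me3 covered 3 of the sites, both of Mcoln1 and the nearer one of Ctsd, by peaks near the weak end of its list.

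The V0 sector genes encode the membrane ring and its partners, and 5 of the 6 were called in all 4 H3K4me2 lists. Peaks were placed within their own list by −log10 p, as a percentage in which a low value is strong. Folds and −log10 p are the values that the authors' caller gave each peak, and they only describe and rank peaks within a list. Atp6v0a1, an isoform of the subunit that carries protons past the ring, had the strongest peaks of the sector by mean place, at 2.57% and 6.58% of the lists of DE replicates 1 and 2 and at 2.19% and 0.75% of those of WT replicates 1 and 2. That interval, chr11:101009287-101009600 over all lists, lay on the annotated start, with summits between 9 bases before and 30 bases past it. Its isoform Atp6v0a2 stood at 5.09% and 30.8% in DE and at 7.03% and 5.59% in WT. Atp6v0d1, the subunit between the ring and the central stalk, stood at 5.44% and 29.5% in DE and at 14.3% and 6.45% in WT. Both genes had their highest percentage in DE replicate 2, the shortest H3K4me2 list, and places cannot be compared between lists of different length.

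Atp6v0b and Atp6v0c encode proteolipids of the proton-carrying ring and had the weaker peaks among the V0 genes called everywhere. Atp6v0b stood at 70.3% and 33.1% in DE and at 14% and 29% in WT. The place in DE replicate 1 is of a peak inside the gene, with its summit 970 bases past the start. In the other H3K4me2 lists it is that of the peak over the start. The region over the start of Atp6v0b, with the 2 E-boxes shown above, was called in all 4 lists. Atp6v0c stood at 19.5% and 25.3% in DE and at 18.4% and 36% in WT, and it had 4 and 4 gene-end peaks in DE and 6 and 5 in WT. Its windows hold an end of Amdhd2 as well, and 2 of its 4 regions lay nearer to Amdhd2 than to an end of Atp6v0c. The places given for both DE lists and WT replicate 2 are of peaks in these 2 regions, past the far end of Atp6v0c. The place in WT replicate 1 is of a peak near the start, with its summit 233 bases inside the gene. Atp6v0e, a small membrane subunit, was called in neither DE list and in both WT lists, at 91.2% and 99.9%, among the weakest peaks of those lists.

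The V1 sector genes encode the ATP-splitting head and its stalks, and 7 of the 8 were called in all 4 lists. Atp6v1d, of the central rotor stalk, stood at 4.18% and 11.4% in DE and at 4.6% and 1.9% in WT, with summits about 300 bases inside the gene (299 to 313). Atp6v1a, the catalytic subunit, stood at 2.23% and 7.92% in DE and at 8.8% and 4.11% in WT. These strongest peaks of Atp6v1a had summits at −937 to −985 bases from its outer gene bound. Their region lay 609 bp from Atp6v1a and 520 bp from an end of Naa50. Called in all 4 lists too were 2 further regions, on that bound and inside the gene. Atp6v1e1, of the peripheral stalk, stood at 17.8% and 27.9% in DE and at 41.2% and 11% in WT. Its summit lay just before the start in DE replicate 1 and WT replicate 2 and about 300 bases inside the gene in the other libraries (306 and 310).

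Weaker places were held by Atp6v1h, the regulatory H subunit, and Atp6v1f, of the rotor stalk. Atp6v1h stood at 52.6% and 61.9% in DE and at 11.1% and 40% in WT, and Atp6v1f at 64.1% and 74.8% in DE and at 28.4% and 15.8% in WT. The values cannot be read as a change between DE and WT, since the lists differ in length. Atp6v1g1, of the peripheral stalk, was called in DE replicate 1 (64.3%) and in both WT lists (20.9% and 19%). In DE replicate 2 the nearest peak to Atp6v1g1 was 6592 bp away. The remaining V1 genes, Atp6v1b2 and Atp6v1c1, were called in all 4 lists at places from 13.8% to 52.7%.

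Of the 13 hydrolase genes, 12 were called in all 4 H3K4me2 lists. Lipa, the lysosomal acid lipase, stood at 16.3% and 1.51% in DE and at 2.64% and 5.03% in WT. Gaa, which breaks down glycogen, stood at 7.3% and 10.8% in DE and at 1.43% and 9.48% in WT. Both had a single peak with its summit within 30 bases of the start in every H3K4me2 list, from 27 bases before to 24 bases past it. Man2b1, an acid mannosidase, stood at 7.51% and 10.8% in DE and at 3.96% and 4.35% in WT, with its summit 496 to 517 bases inside the gene. The cathepsin gene Ctsh, a cysteine protease, stood at 14% and 21.6% in DE and at 7.8% and 1.04% in WT.

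Hexa, a subunit of hexosaminidase, and Glb1, the acid galactosidase, had the weakest places among the hydrolase genes called everywhere. Hexa stood at 49.1% and 75% in DE and at 29.1% and 37.8% in WT, and Glb1 at 58.8% and 82.1% in DE and at 38.4% and 64.8% in WT. Gusb, the acid glucuronidase, stood at 83.7% in DE replicate 1 and at 60.6% and 58.3% in WT. The peak of DE replicate 2 nearest to Gusb lay 1462 bp from the gene end, inside the gene and outside the window. All 7 cathepsin genes (Ctsa, Ctsb, Ctsc, Ctsd, Ctsh, Ctsl and Ctsz) were called in every H3K4me2 list, and Ctsz, a carboxypeptidase, had the weakest mean place among them (43.1%).

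Of the 8 other lysosomal genes, 7 were called in all 4 lists. Psap, the precursor of the saposins that activate lipid hydrolases, stood at 2.36% and 3.04% in DE and at 5.44% and 4.81% in WT, with folds of 20.4 and 16.3 in DE and 14.9 and 24 in WT. Npc2, which hands cholesterol to Npc1, stood at 9.95% and 8.53% in DE and at 10% and 5.61% in WT. Mcoln1, a calcium channel of the lysosome membrane, stood at 9.23% and 12.9% in DE and at 9.48% and 7.75% in WT. That peak of Mcoln1 lay past the far end of the gene, 51 bp from an end of Pnpla6, and a separate peak over the start of Mcoln1, across both E-boxes, was called in all 4 lists.

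Tfeb itself, the regulator of the pathway, stood at 25.1% and 17.2% in DE and at 7.28% and 15.3% in WT. These peaks had summits 817 and 794 bases past the start in DE, and 804 and 10 bases past it in WT replicates 1 and 2. Lamp1 and Lamp2, the abundant glycoproteins of the lysosome membrane, mostly had weak peaks in their lists. Lamp1, called in all 4, stood at 85.8% and 99.3% in DE and at 21% and 76.3% in WT, places that cannot be compared between lists of different length. Lamp2, on the X chromosome, was called at 78.7% in DE replicate 2 and at 85.3% in WT replicate 2 and was not called in the other H3K4me2 lists. The Lamp2 call, chrX:38455924-38456063 over both lists, was thus made in 1 library of each genotype.

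Proton pump genes and hydrolase genes were called about equally often. In all 4 H3K4me2 lists 12 of the 14 pump genes (85.7%) and 12 of the 13 hydrolase genes (92.3%) were called, a difference of a single missing gene. DE replicates 1 and 2 called 13 and 12 pump genes and 13 and 12 hydrolase genes, and WT replicates 1 and 2 called all 14 pump genes and all 13 hydrolase genes. H3K4me3 was called at 7 pump genes and 6 hydrolase genes. At a −log10 q of at least 5, 7 pump genes and 8 hydrolase genes were called in all 4 lists.

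**Figure D2:**
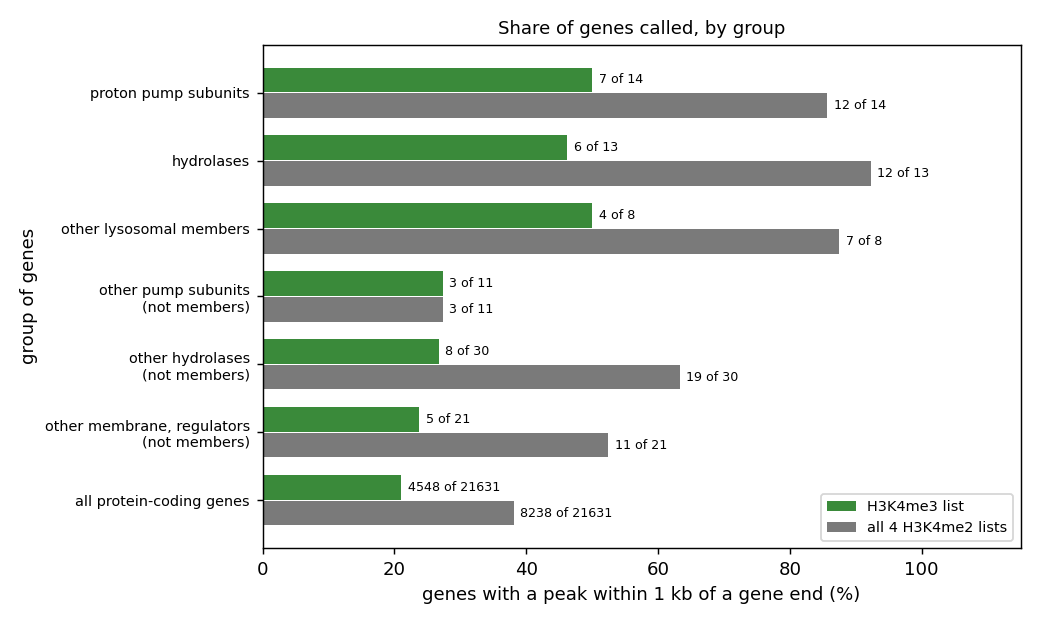
Share of genes (in %) with a peak within 1 kb of a gene end in the H3K4me3 list (green) and in all 4 H3K4me2 lists (grey), for the proton pump, hydrolase and other lysosomal genes, for 3 lists of further lysosomal genes and for all 21631 protein-coding genes, with the counts beside the bars. The pump and hydrolase genes lie close together, at 85.7% and 92.3% for H3K4me2, and the pump paralogues have the lowest H3K4me2 share, at 27.3%.

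In 3 of the 4 H3K4me2 lists the pump genes had a weaker median place than the hydrolase genes. The medians were 19.5% for 13 called pump genes and 14% for 13 hydrolase genes in DE replicate 1, and 30.1% for 12 and 20.6% for 12 in DE replicate 2. They were 16.2% for pump genes and 8.92% for hydrolase genes in WT replicate 1, and 14.8% for pump genes and 16.4% for hydrolase genes in WT replicate 2, with 14 and 13 genes. All genes called in the same lists had medians of 29.5%, 33.3%, 23.4% and 24.5%, so both groups had a stronger median place than all called genes in each of these lists. The pump minus hydrolase difference was 5.19 ± 4.84 percentage points (SD, n = 4 lists), with a range from −1.64 to 9.58, and no test was made because the genes share their libraries. It was 10.1 points with windows of 500 bp and 12.4 points without the 18 genes whose windows hold another gene's end.

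In each of the 4 H3K4me2 lists a smaller share of pump genes than of hydrolase genes had the summit of the strongest peak near the start. Within 200 bp of the start were 4 of 8 pump genes and 7 of 11 hydrolase genes in DE replicate 1, and 4 of 8 and 7 of 10 in DE replicate 2. In WT replicates 1 and 2 these were 5 and 6 of 9 pump genes and 9 and 9 of 11 hydrolase genes. The share over all called genes was 62.9% to 64.7%. The genes are few, no test was made, and genes without a strand in the tables were left out.

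Further lysosomal genes were taken from lists of the same pathway, and 38.1% of all protein-coding genes is the share to read them against. Of 11 pump paralogues and accessory subunits 3 (27.3%) were called in all 4 lists. These were Tcirg1, the a subunit isoform of osteoclasts and immune cells, Atp6v1g2 and the accessory protein Atp6ap1. Called in none were 6, namely Atp6v0a4, Atp6v0d2, Atp6v0e2, Atp6v1b1, Atp6v1e2 and Atp6v1g3, several of which are known from kidney or testis. Of 30 further hydrolase genes 19 (63.3%) were called in all 4 lists and 4 in none, the cathepsin gene Ctsk, the acid ceramidase gene Asah1, the sulfatase gene Arsa and the phosphatase gene Acp5. Of 21 further membrane and regulatory genes 11 (52.4%) were called in all 4 lists, Tfe3 and Mitf, relatives of Tfeb, among them. Cd63, Mcoln3 and Tfec were called in none. The core E-box stood in 0 of 10 paralogue promoters, 5 of 23 promoters of the further hydrolases and 3 of 19 of the membrane and regulatory genes.

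Between DE and WT the number of the 35 genes called was close in the lists as deposited and lower in DE at a −log10 q of 5 or more. Atp6v0e alone was called in both WT lists and in neither DE list, 1 of 35 genes, against 3.11% of all protein-coding genes. No gene of the list was called in both DE lists and neither WT list, against 0.227% of all protein-coding genes. The mean number of genes called was 32.5 ± 0.707 in DE and 34.5 ± 0.707 in WT (SD, n = 2 each). With peaks of a −log10 q of 5 or more, DE replicates 1 and 2 called 26 and 22 of the 35 genes, a mean of 24, where 33.9% and 26.6% of all protein-coding genes were called. WT replicates 1 and 2 then called 32 and 32 of the 35 genes, a mean of 32, where 38.8% and 44.3% of all protein-coding genes were called. The lower count in DE thus went with a lower count over all genes. In lists cut to their 17079 strongest peaks the mean was 31.5 in DE and 31.5 in WT. The Atp6v0e peak spanned chr17:26676332-26676450 on the start of the gene, with folds of 3.44 and 2.7 in WT replicates 1 and 2, and its nearest peaks in DE replicates 1 and 2 lay 15802 and 16602 bp away. With each list cut to its 17079 strongest peaks the Atp6v0e peak was in no list, 0 of the 35 genes and 1.20% of all genes had this pattern, and 29 of the 35 genes and 32.5% of all genes were called in all 4 lists. With the −log10 q limit of 5 the genes called in WT alone were Atp6v1f, Atp6v1g1, Atp6v1h and Glb1, 4 of 35, against 5.40% of all genes. Without DE replicate 1 there were 3 in the lists as deposited, as Atp6v1g1 and Gusb were then counted, against 7.48% of all genes.

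The 35 genes had 63 H3K4me2 regions at their ends, merged from the 4 lists. Of these 42 (66.7%) were called in all 4 lists, against 50.7% of 16068 gene-end regions of all protein-coding genes. In both WT lists and neither DE list 4 regions were called, at Atp6v0e, Glb1, Lamp1 and Npc1, or 6.35% against 8.14% of all gene-end regions. In both DE lists and neither WT list 2 were called, at Glb1 and Lamp1, or 3.17% against 0.977% of all gene-end regions. Glb1 and Lamp1 therefore held a region of each kind, and both genes counted as called in all 4 lists. Npc1, the cholesterol exporter of the lysosome membrane, had its main region on a gene end in all 4 lists, and the region called in WT alone lay 539 bp from that end.

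At Lamp1 the WT peaks lay on or just past the start and the DE peaks inside the gene. The DE peaks were chr8:13159798-13159985 and chr8:13159862-13160001, with summits 786 and 770 bases past the start and folds of 4.62 and 3.88. The WT peaks were chr8:13159154-13159320 and chr8:13159193-13159318, with summits 73 and 71 bases past the start and folds of 8.7 and 4.51. All 4 E-boxes of the Lamp1 sequence shown above end before the WT peaks begin.

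Glb1 had the same arrangement. Its DE peaks were chr9:114401709-114401832 and chr9:114401615-114402045, with summits 681 and 723 bases past the start and folds of 5.83 and 4.41. Its WT peaks were chr9:114400943-114401152 and chr9:114400958-114401302, with summits 40 and 50 bases before the start and folds of 5.32 and 3.58. The WT region lay on an end of Tmppe as well as on the start of Glb1. The DE region lay 520 bp from an end of Tmppe and 537 bp from that of Glb1. Lamp1 and Glb1 are described in this detail because of these values.

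Most of these peaks were weak in their lists. At Lamp1 the peak of DE replicate 1 was number 18842 of its list and that of WT replicate 2 number 21481, both past the 17079 peaks kept in lists of equal length. At Glb1 the peak of WT replicate 2 was number 18254, while the DE peaks, numbers 12925 and 14029, were kept. With lists of equal length 3 regions had the DE pattern and 0 the WT pattern, where 4.11% and 3.35% of all gene-end regions had them. When a −log10 q of 5 or more was required 0 had the DE pattern and 7 the WT pattern, against 0.392% and 12.7% of all such regions. Which pattern was more frequent thus turned between these settings over all gene-end regions as well. Without DE replicate 1 the counts were 4 for DE and 8 for WT, against 3.28% and 17.6% of all such regions, and without WT replicate 1 they were 2 and 8, against 1.77% and 17.5%. With windows of 500 bp Lamp1 and Glb1 joined Atp6v0e as genes called in WT alone, 3 of 35, against 3.32% of all protein-coding genes.

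**Figure D3:**
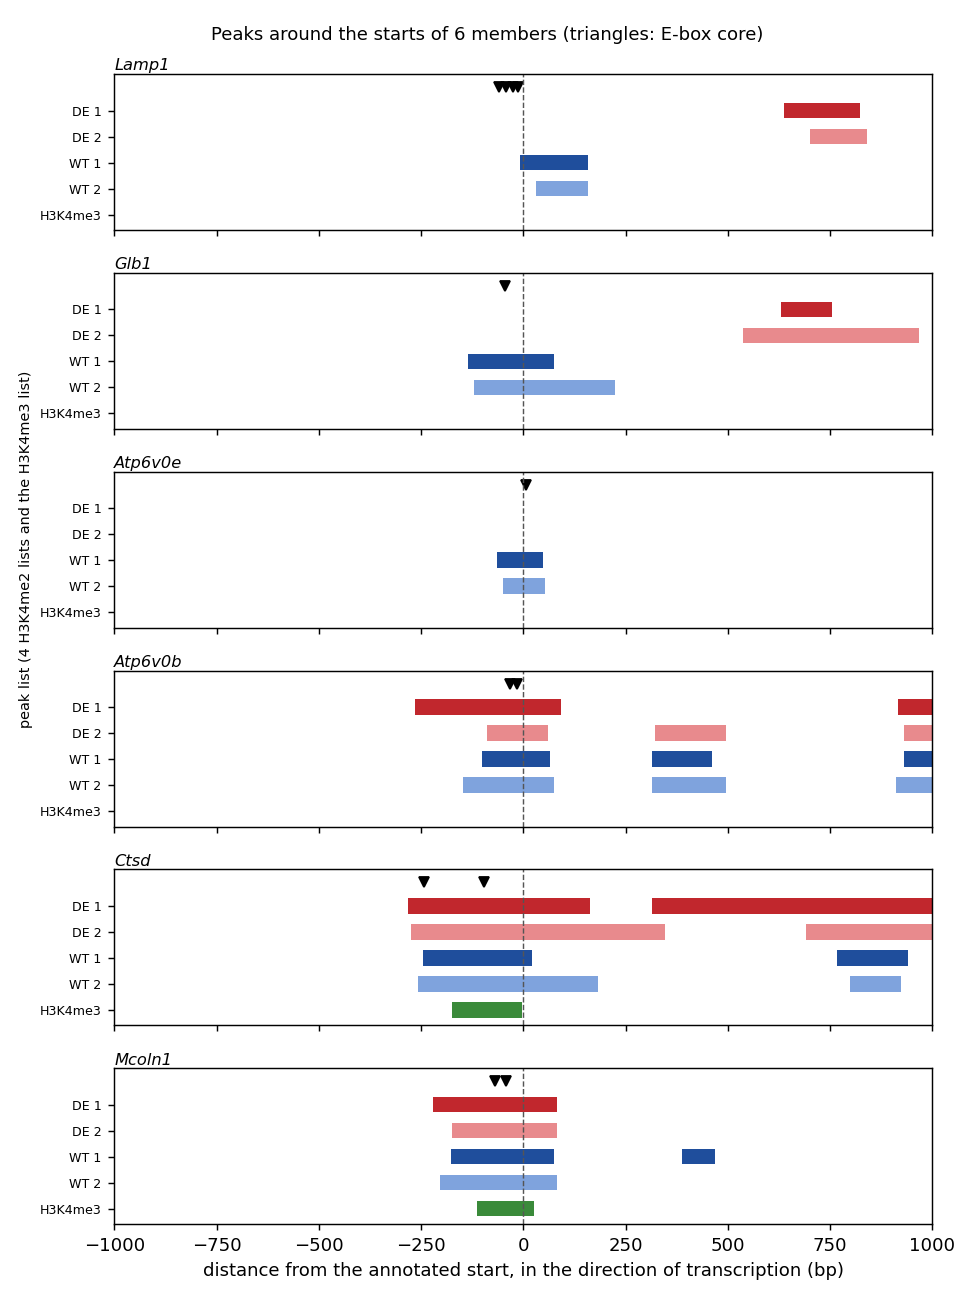
Peaks of the 5 lists (bars) within 1000 bp of the annotated start of 6 lysosomal genes, in bp along the direction of transcription, with DE lists in red, WT lists in blue and the H3K4me3 list in green. Triangles mark core E-boxes. At Lamp1 and Glb1 the DE bars lie to the right of the WT bars and do not overlap them, at Atp6v0e there are WT bars alone, and at Atp6v0b, Ctsd and Mcoln1 bars of all 4 H3K4me2 lists cover the start.

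The bases covered by H3K4me2 peaks at the gene ends gave no clear difference between DE and WT. Covered bases were lower in both DE lists than in both WT lists at 6 of the 35 genes, against 21.4% of 11469 genes with a call in any H3K4me2 list. They were higher in both DE lists at 5 of the 35, against 15.8% of the same genes. The 6 were Atp6v0e, Atp6v1g1, Ctsc, Ctsl, Npc1 and Npc2, and the 5 were Atp6v0c, Ctsd, Lipa, Psap and Grn. With 2 against 2 libraries the exact two-sided permutation test cannot go below p = 0.333, its smallest Benjamini-Hochberg adjusted value over the 11469 genes was 0.894, and 0 genes had a p under 0.05.

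Among the 35 genes the largest difference was at Ctsd, the aspartic protease cathepsin D. Peaks covered 1132 and 930 bp of its windows in DE and 442 and 567 bp in WT, or 1031 ± 143 bp in DE and 504 ± 88.4 bp in WT (SD, n = 2 each; exact permutation p = 0.333). The 4 lists overlapped at the start of Ctsd, where peaks ended 163 and 346 bases past the start in DE and 21 and 182 bases past it in WT. A second peak inside the gene ran from 314 to 1098 and from 692 to 1096 bases past the start in DE, and from 766 to 940 and from 798 to 923 in WT, and was wider in both DE lists. Psap had 608 and 560 covered bp in DE and 442 and 461 bp in WT. Among the genes with fewer bases in DE, Ctsl, the cysteine protease cathepsin L, had 170 and 204 bp in DE and 239 and 399 bp in WT. Npc2 had 424 and 365 bp in DE and 474 and 493 bp in WT.

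The widths of all peaks also differed between the genotypes. The shortest interval of a list was 109 and 109 bp in DE and 74 and 91 bp in WT, and the median width was 249 and 246 bp in DE and 152 and 212 bp in WT. The part of these widths in the covered bases was not tested. At a −log10 q of at least 5, 10 of the 35 genes had fewer covered bases in DE (24.1% of all genes called) and 3 had more (11.9%). With lists of equal length 3 had fewer (13.4%) and 8 had more (22.6%), so the direction of the split turned, for the 35 genes as for all genes. Without DE replicate 1 these were 11 and 14 genes, without DE replicate 2 they were 10 and 12, without WT replicate 1 they were 13 and 7, and without WT replicate 2 they were 7 and 17. With a library left out, 1 list is compared with 2, a looser condition that cannot be read against the shares given above. The share of all genes that meet it was not taken.

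**Figure D4:**
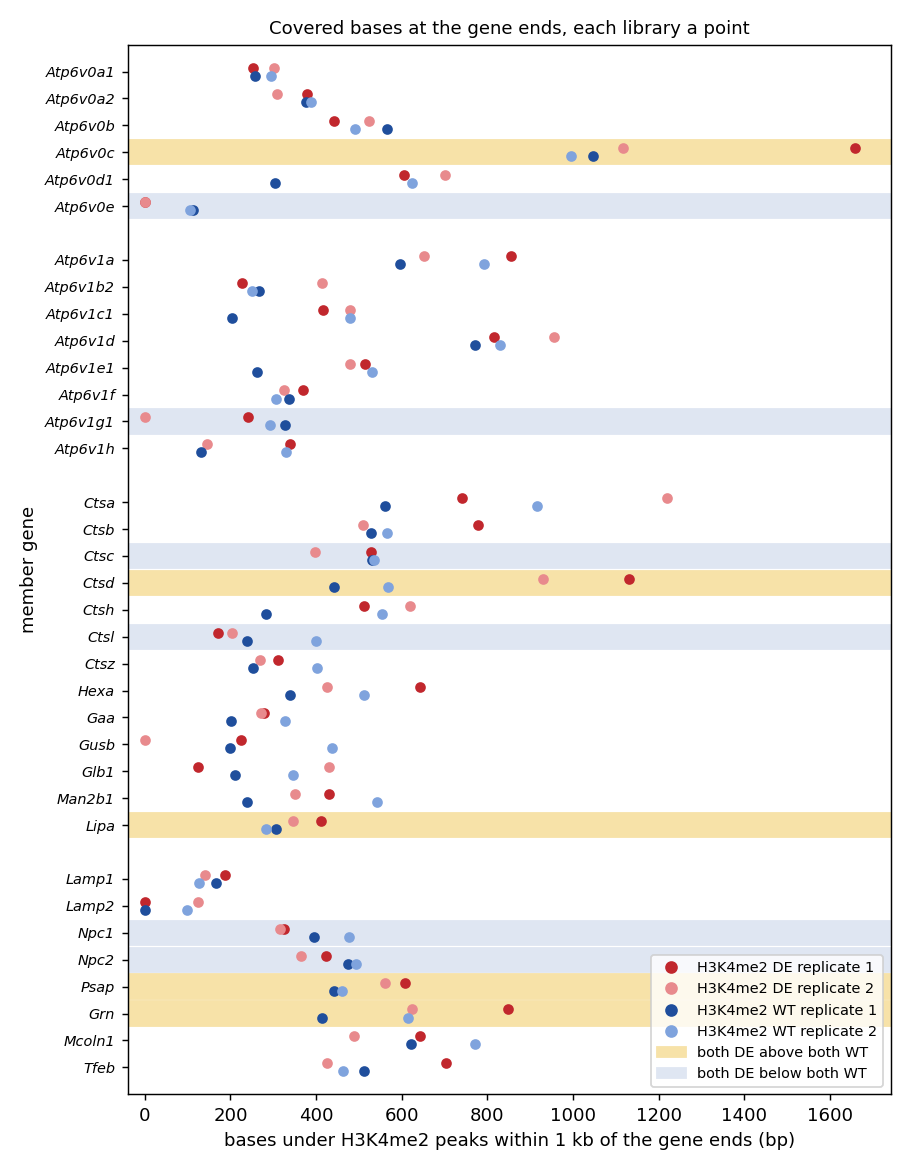
Bases (bp) under H3K4me2 peaks within 1 kb of the ends of each of the 35 genes, with a point per library, DE in red and WT in blue. Yellow bands mark the 5 genes at which both DE points lie above both WT points and blue bands the 6 at which both lie below, and at the other 24 genes the genotypes overlap or tie.

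H3K4me3 was called at 17 of the 35 genes (48.6%), against 21.0% of all protein-coding genes. All 17 were among the 31 genes called in all 4 H3K4me2 lists, of which they make up 54.8%. Of all genes called in those 4 lists 50.8% carried H3K4me3, so among genes with H3K4me2 the share was close to that of all genes. By role H3K4me3 was called at 2 of 6 V0 genes, 5 of 8 V1 genes, 6 of 13 hydrolase genes and 4 of 8 other lysosomal genes. The single H3K4me3 library belongs to another batch than the H3K4me2 libraries, so the mark cannot be told apart from the batch, and H3K4me3 has no replicate.

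The 17 genes held 29 H3K4me3 peaks, of which 25 overlapped peaks of all 4 H3K4me2 lists. The same share over the H3K4me3 peaks at the ends of all genes was not taken. More than 1 peak was found at 8 genes, Atp6v1a, Atp6v1d, Atp6v1b2, Atp6v1e1 and Ctsa among them. Atp6v1a had 4, and the strongest of these, at 4.68% of the list with a fold of 12.8, was that near Naa50. Its peak over the outer gene bound stood at 83.6%. The start of its promoter entry lies inside that bound, and the peak nearest to that start, at −111 to −8 bases, stood at 49%. Atp6v1d, at 10.6%, Mcoln1, at 11.9% and past its far end, and Psap, at 12.3% and on its start, followed. At the lower end of the list were Atp6v0a2 at 82.3%, Ctsd at 93.7% and the peak of Mcoln1 over its start and E-boxes at 95.4%. The weaker of the 2 peaks of Ctsb stood at 99.3%, the weakest of the 29. No H3K4me3 peak lay at the ends of Atp6v0a1, Gaa or Tfeb, where every H3K4me2 list had one. With a list this short a gene without a call may still carry H3K4me3.

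Peaks inside the genes, beyond the windows, varied from gene to gene. At 17 of the 35 genes no H3K4me2 list had one, against 68.9% of all protein-coding genes and 60.3% of those called in all 4 lists. At 5 (Hexa, Gusb, Psap, Grn and Tfeb) every list had at least 1, against 11.5% of all protein-coding genes and 15.2% of those called in all 4 lists. These shares were not matched for gene length. Of 43 such regions 5 were called in all 4 lists, a share that was not taken over all genes. These 5 were 2 in Hexa and 1 each in Gusb, Psap and Grn. Psap, the saposin precursor gene, held the most, with 6 and 3 in DE and 4 and 4 in WT. The region of Psap called in every list was chr10:60284323-60284772, about 6.9 kb past the start (6919 bp at its middle). Lamp1 had an internal region at 1727 bp past its start, called in DE replicate 1, both WT lists and the H3K4me3 list, the only H3K4me3 peak inside any of the 35 genes beyond the windows. It was not called in DE replicate 2.

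The windows of 18 of the 35 genes also hold an end of another protein-coding gene, 8 of them pump genes, 6 hydrolase genes and 4 others. For those genes a peak cannot be ascribed to the lysosomal gene alone, as at Atp6v1d and Eif2s1 or at Npc2 and Isca2, whose ends share a region. Of the 63 regions 52 lay at least as near to the end of the lysosomal gene as to any other. When only peaks of that kind were counted, 30 of the 35 genes were called in all 4 lists, against 35.6% of all protein-coding genes. Atp6v0e and Glb1 were then called in WT alone, against 3.28% of all protein-coding genes.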

How the data were processed

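Peak lists of 5 of the 7 labelled samples were used. Peaks were called per library with MACS2 2.2.9.1 on mm10 after Trimmomatic, Bowtie2, SAMtools and Picard, per the submitters' processing notes, and the sources used here name neither their settings nor a control. Each deposited entry holds a score, the fold of the pileup over background as a linear ratio, the −log10 of p and q at the summit, and the offset of the summit, as the authors' caller wrote them. No peak had a −log10 q under 1.00. The lists differ in length, so counts by genotype were also taken from lists of equal length, the 17079 strongest peaks of each.

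Entries with the same interval were counted once, by their strongest p, on the autosomes, X and Y. Genes came from RefSeq gene bounds, and strand from the promoter table, for 27 of the 35 genes. Peak summits count from the outer gene bound on the start side, and E-box positions from the start in the promoter table. Coordinates count from 1. Regions are merged unions of the 4 H3K4me2 lists. Covered bases were compared with an exact permutation test over 6 assignments and Benjamini-Hochberg adjustment over all genes with a call. The code recovered planted peaks in simulated lists. Values in every library are given for genes not called in all 4 lists and for the 3 strongest and 2 weakest of each role by mean place, and others were named after their values were seen. Peaks nearest to a gene's own end, region patterns under other settings and crossed pairs were alternatives chosen after seeing the data. The members and lists were chosen with earlier results of these data known. Python 3.11.15, NumPy 2.4.6 and SciPy 1.17.1 were used.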

Additional observations from a re-analysis of the deposited data

How the results depend on the processing

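The count of genes called in all 4 H3K4me2 lists stayed within 1.5 times under every setting tried, from 21 to 33. Genes called in WT alone (1) were 4 at a −log10 q of at least 5, 0 with lists of equal length, 3 within 500 bp, 2 with peaks nearest to the own end and 1 to 3 when a library was left out. Pump genes called in all 4 lists (12) were 7 at that q. Genes with fewer covered bases in DE (6) were 10 at that q, 3 with lists of equal length and 7 to 13 when a library was left out. Genes with more (5) were 3 at that q, 8 with lists of equal length, 3 within 500 bp and 7 to 17 when a library was left out. Regions in WT alone (4) were 7 at that q, 0 with lists of equal length and 5 to 8 when a library was left out, and regions in DE alone (2) were 0 at that q and 2 to 4 when a library was left out. The difference in median place (5.19) was 10.1 within 500 bp and 12.4 without genes that share their window, and 3.73 to 7.47 when a library was left out. With a library left out, fewer lists must meet a condition. Counts of genes called in WT alone or with separated covered bases can then only stay or rise. The share of all genes was not taken for covered bases with a library left out. The cause of the other shifts was not tested. DE and WT share replicate numbers, but the labels tie them to no animal or day, and the within-genotype differences of replicate 1 minus 2 had a Pearson correlation of −0.101 across 11469 genes. With the replicate number as a block, each DE list was compared with its same-numbered WT list alone. In both pairs 6 genes then had fewer and 12 more covered bases in DE, under a condition looser than separation of both DE from both WT lists. With the crossed pairing, chosen after seeing the data, these were 10 and 8. The start side could be used for 27 genes alone. The lists hold no read totals, so what depth limits could not be given beyond the length of each list.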
